A study of Mus musculus with 16 samples.

Results

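This section concerns 7 mouse genes of fatty acid oxidation and its control, examined in maps of N6-methyladenosine (m6A) from 8 livers. The genes are Cpt1a, Cpt2, Acadm, Hadha, Hadhb, Ppara and Ppargc1a. Every row of the 8 deposited lists of methylated mRNA sites that names 1 of them was taken, and a gene with no row in a list was counted as having no peak in that mouse. In all, 5 of the 7 genes had a peak in at least 1 mouse, against 8284 gene names with a peak in the whole series. The groups were 4 db/db mice, a model of obesity and diabetes caused by loss of leptin receptor signalling, and 4 lean control mice of strain C57BL/6. All 8 were male. The labels used here give neither age nor the strain on which the db/db mutation was carried. Each mouse had 1 m6A immunoprecipitated library and 1 input library, and the peak lists carry the names of the immunoprecipitated libraries.

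m6A is a methyl group set on adenosines of RNA by a nuclear writer complex and bound by reader proteins that can alter the splicing, stability or translation of a transcript. It is found most often near stop codons and in long exons, within a short consensus around GGACU, and antibodies raised against it also bind the related cap-adjacent mark m6Am. Fatty acid oxidation breaks acyl chains down in mitochondria. In liver it supplies energy and ketone bodies during fasting. CPT1A on the outer mitochondrial membrane couples the acyl chain to carnitine, the step that malonyl-CoA blocks, and CPT2 on the inner membrane returns it to coenzyme A. ACADM then opens each cycle for medium-length chains, and HADHA and HADHB are the alpha and beta subunits of the mitochondrial trifunctional protein, which carries out the later steps for long chains. PPARα is the nuclear receptor that switches on these genes in fasting, and PGC-1α, the product of Ppargc1a, is a coactivator that it and other receptors recruit.

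The 7 genes gave 16 listed peaks, 6 from db/db livers and 10 from lean livers, which joined into 6 regions. How close they lay to the start of their gene depended on which annotated start was used. RefSeq (GRCm38.p6, which shares the coordinates of mm10) gives 1 promoter window for each of the 7 genes, which runs from 250 bases before a transcription start site to 50 after it, and distances here are counted from that start site. For Cpt1a, Ppara and Ppargc1a that start lies 975, 866 and 548128 bases inside the outer bound of the gene, whereas for Acadm and Hadhb it is the bound itself. From the window's start site, 11 of the 16 peaks, in 4 of the 6 regions, fell within 500 bases, as did 25.1% of 16273 peaks and 20.7% of 10382 regions over all genes with 1 promoter window. From the outer bound, 3 of the 16 peaks, those of Acadm and Hadhb, did so, as did 22.0% of the same peaks and 18.2% of the same regions over all genes. The limit of 500 bases was chosen after the positions had been seen, and 7 of the 11 peaks were the same Cpt1a region seen in 7 mice. Sequence around the window's start site is given here because 2 of the regions reach into it. The first run holds the bases of the Cpt1a region that the RefSeq window covers, with the part shared by the peaks of all 7 mice in capitals. The second holds bases of the Hadhb region, with the part shared by the peaks of both mice in capitals.
Cpt1a, chr19:3323328-3323350, plus strand: ggcccggaCTCCGCTCGCTCATT
Hadhb, chr5:30155273-30155302, plus strand: gcgtgggcggacgtttGTCAGTCTGGACTT

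Both runs hold GGACT, the DNA form of the commonest m6A consensus, once on the plus strand, which reads in the sense of the RNA. The runs cover 23 of the 47 bases of the Cpt1a region and 30 of the 116 bases of the Hadhb region. Bases of both regions past the end of the promoter window were not searched. In Hadhb it lay at bases 45 to 49 from the start, counted from 1 at the first base, and both peaks covered it. In Cpt1a it lay at bases 33 to 37, and 4 of the 7 peaks covered all of it, those of db/db mice 2 and 3 and lean mice 1 and 3. Of 32851 annotated starts, 2.61% hold GGACT in the window of 23 bases at the position of the Cpt1a run and 3.36% in the window of 30 bases at that of the Hadhb run. A looser core, AC after any pair of purines, is in 26.0% and 33.8% of the same windows, and GGACT was singled out after the runs had been read. A match of letters is a description of the sequence and does not mark the methylated base.

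Hadha and Hadhb lie head to head on chromosome 5, and the start sites of their windows are 273 bases apart on opposite strands, so that 228 bases belong to the promoter windows of both. That stretch is shown because peaks were listed on one side of it and not on the other. It holds 1 GGGCGG, the site of Sp1-type factors, on either strand (in capitals), and it has no CCAAT box. The nuclear receptor motif AGGTCA is not in it. GGGCGG occurs in 35.7% of all promoter windows, which are longer than these 228 bases.
Hadha and Hadhb, chr5:30155003-30155230, plus strand: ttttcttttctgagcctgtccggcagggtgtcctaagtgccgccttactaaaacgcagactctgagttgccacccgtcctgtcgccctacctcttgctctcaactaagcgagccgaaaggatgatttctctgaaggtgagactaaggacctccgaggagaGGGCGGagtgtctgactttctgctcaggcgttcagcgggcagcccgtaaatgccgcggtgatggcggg

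The 100 bases before the start of Cpt1a, next to its region, hold 2 matches of GGGCGG and 1 of AGGTCA, all on the minus strand, and 1 CCAAT on the plus strand (in capitals). CCAAT is the box bound by NF-Y and occurs in 37.4% of all promoter windows on either strand, and AGGTCA in 16.3%. Those windows run from 250 bases before a start to 50 after it, so they are longer than the 100 bases shown.
Cpt1a, chr19:3323201-3323300, plus strand: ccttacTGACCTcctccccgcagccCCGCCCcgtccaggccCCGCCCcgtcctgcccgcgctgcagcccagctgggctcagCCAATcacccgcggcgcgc

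List length averaged 3882 ± 848 peaks for db/db mice, against 3192 ± 833 for lean mice (SD, n = 4 each), and the genotypes did not differ beyond the spread of the mice (two-sided exact permutation test, 70 assignments, p = 0.314). The files hold no read counts, so sequencing depth is unknown. A gene without a peak may lack the mark, be expressed too little or have too few reads, and which of these held was not tested. In bulk liver, fewer cells of a type and less RNA per cell cannot be told apart. Of 12 hepatocyte markers 5 had a peak in some mouse, 0 to 2 per db/db mouse and 1 to 2 per lean mouse, and Alb, Apob, Tf, Serpina1a, Cps1, Fgb and Cyp2e1 had none. The lists are not a measure of expression. All 4 Kupffer cell, all 4 endothelial and all 4 stellate cell markers and 3 of 4 cholangiocyte markers had a peak in some mouse, whereas no peak was listed for the 4 adipocyte markers or the 4 muscle markers.

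Entry into the mitochondrion was represented by Cpt1a, whose region was the most widely shared of the 6. It had a peak in 3 of 4 db/db mice and 4 of 4 lean mice, at chr19:3323328-3323374 (mm10, gene ID 12894, transcript NM_013495), 28 to 74 bases from the window's start site and 1003 to 1049 bases from the outer bound of the gene. Fold enrichment, a ratio that the authors give for each peak and whose denominator the sources used here do not describe, was 8.88, 49.3 and 11.4 in db/db mice 2, 3 and 4, and no peak was listed in db/db mouse 1. In lean mice 1 to 4 it was 5.80, 8.49, 27.1 and 8.17. One mouse of each genotype, db/db mouse 3 and lean mouse 3, stood well above the rest, and the ranges of the genotypes overlapped.

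Peaks were called for each mouse on its own, so the rank of a peak within its list is given too. The Cpt1a peak stood at percentiles 32.2, 97.3 and 53.2 of fold in db/db mice 2, 3 and 4, and at percentiles 14.4, 35.1, 86.9 and 24.0 in lean mice 1 to 4. It thus lay above the median fold of the list in db/db mice 3 and 4 and in lean mouse 3, and below it in the other 4 mice. Regions with a peak in 7 or 8 mice made up 2.38% of all 17936 regions. The mouse without a Cpt1a peak, db/db mouse 1, had the longest list, with 4807 peaks.

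All 7 Cpt1a peaks ended on the same base, 3323374, while their starts took 6 values between 3323328 and 3323336. The peaks were 39 to 47 bases long, against a median of 74 over all peaks. Of the 168 regions with 1 peak in each of exactly 7 mice, 21, or 12.5%, had a single end in all of them, and 20.2% had a single start or a single end. These shares were counted after the common end of Cpt1a had been seen. Exons were not used here, so it was not tested whether that base is an exon edge. Fisher's exact test gave p = 1 for the number of mice with a Cpt1a peak (adjusted p = 1).

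The same 7 mice had a peak in Rxra, which encodes RXRα, the nuclear receptor that binds DNA as a partner of PPARα. Among 8283 other genes, 33 had the presence and absence of Cpt1a in all 8 mice, or 0.398%, and Rxra was the 1 gene of the wider oxidation list among them. Rxra had a single region, at chr2:27677225-27677348, with folds of 17.0, 9.51 and 11.7 in db/db mice 2, 3 and 4 and of 23.9, 14.8, 25.1 and 17.6 in lean mice 1 to 4. Its lowest fold fell in db/db mouse 3, in which Cpt1a had its highest. No peak of either gene was listed in db/db mouse 1. Cpt2 (gene ID 12896, chromosome 4, 107903982 to 107923589) had no peak in any mouse.

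**Figure D1:**
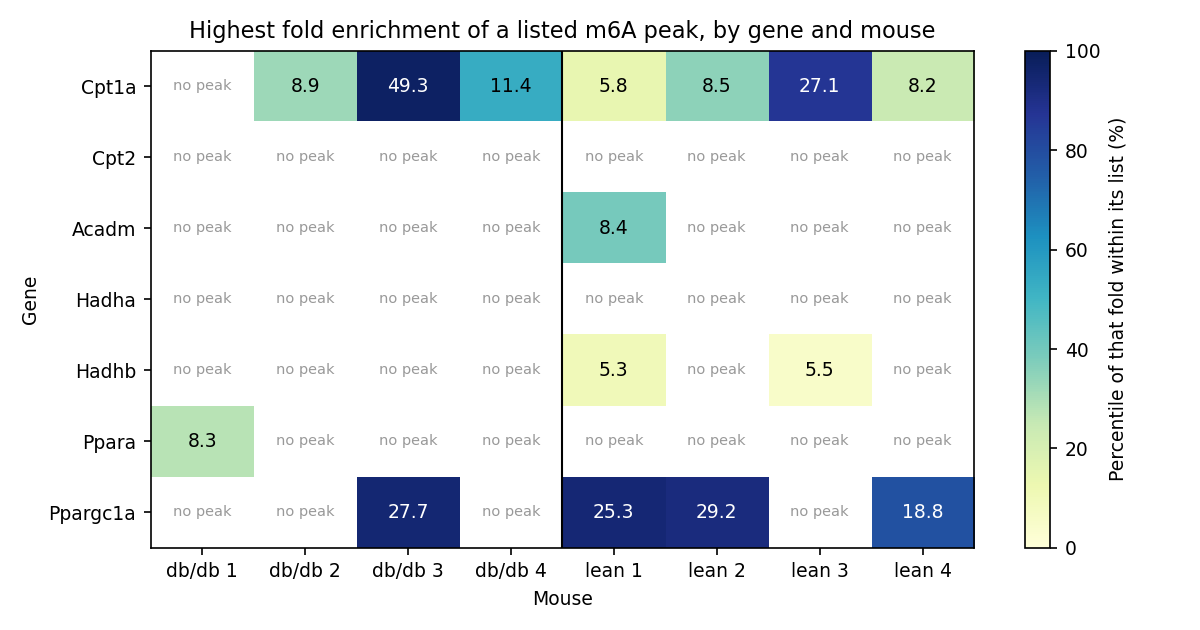
Highest fold enrichment of a listed m6A peak for each of the 7 genes (rows) in each mouse (columns, 4 db/db on the left and 4 lean on the right); the number is the authors' fold and the colour its percentile within that mouse's list. Cpt1a fills 7 of 8 columns at very different ranks, the Ppargc1a cells are all dark, the Hadhb cells are pale, and Cpt2 and Hadha are empty.

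Among the cycle enzymes that this section concerns, Acadm, Hadha and Hadhb, peaks were sparse and were listed in lean mice. This did not hold for all spiral genes of the wider oxidation list, described below. There, Acads had a peak in db/db mouse 1 alone, Etfa in 1 db/db and 1 lean mouse, and Decr1 in 2 db/db and 4 lean mice. Hadh, Eci1 and Eci2 each had a peak in 1 lean mouse alone. Acadm (gene ID 11364), the medium-chain acyl-CoA dehydrogenase, had 1 peak, in lean mouse 1, and none in db/db mice. It lay at chr3:153944396-153944500, 144 to 248 bases from the start of a gene on the minus strand, with a fold of 8.39 at percentile 39.3 of its list. Lean mouse 1 had the longest of the lean lists, with 4394 peaks.

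Hadhb (gene ID 231086), the beta subunit of the trifunctional protein, had a peak in 0 of 4 db/db mice and 2 of 4 lean mice (Fisher's exact p = 0.429, adjusted p = 1). In lean mouse 1 the peak spanned chr5:30155271-30155382 with a fold of 5.31, and in lean mouse 3 it spanned chr5:30155289-30155386 with a fold of 5.48. These were among the weakest peaks of their lists, at percentiles 9.82 and 4.95. The score of the peak, -10 times the log10 of its p-value, was 110 in lean mouse 1 and 52.8 in lean mouse 3, and the smallest score listed in any mouse was 50. The peaks shared 94 bases and began 19 and 37 bases from the start, so they fell in the same region. Whether the same base was methylated in both mice cannot be told from peak bounds. The groups overlapped, since the db/db mice and lean mice 2 and 4 alike had no peak.

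Hadha (gene ID 97212, chromosome 5, 30119423 to 30154980), which encodes the alpha subunit of the same enzyme, had no peak in any mouse. Its neighbour's region began downstream of the 228 shared bases shown above, on the Hadhb side, and no peak of any gene name overlapped the bounds of Hadha. No peak under another gene name lay within the bounds of any of the 7 genes, and no annotated gene other than the named one overlapped any of the 16 peaks.

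**Figure D2:**
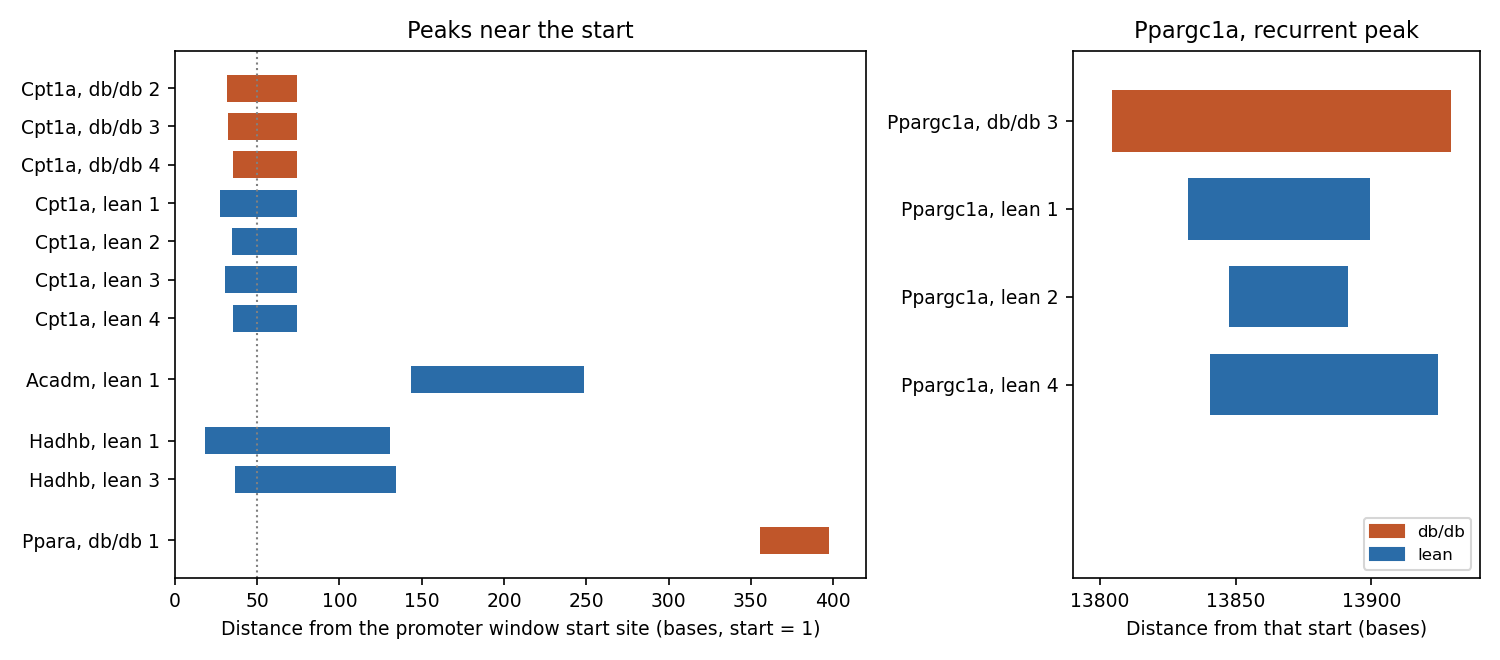
Position of each peak of the 7 genes as bases from the start site of the RefSeq promoter window, 1 bar per mouse (db/db in orange, lean in blue); the left panel shows the 11 peaks within 500 bases, where the dotted line marks base 50, the last base of the promoter window, and the right panel shows the 4 peaks of the recurrent Ppargc1a region. The 7 Cpt1a bars end together at base 74, whereas the Ppargc1a bars differ at both ends.

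Of the regulators, Ppargc1a (gene ID 19017) carried the strongest recurrent region. It had a peak in 1 of 4 db/db mice and 3 of 4 lean mice at chr5:51553797-51553921, on the minus strand, between 13805 and 13929 bases from the window's start site. The bounds of the gene span 661605 bases and reach beyond that start, so that the region lies 561933 to 562057 bases from the outer bound. The fold was 27.7 in db/db mouse 3, and 25.3, 29.2 and 18.8 in lean mice 1, 2 and 4. These peaks stood at percentile 94.5 in db/db mouse 3 and at percentiles 94.0, 91.9 and 78.6 in lean mice 1, 2 and 4, so that each lay above its list's median. The fold of the db/db mouse lay within the range of the lean mice, and the difference was one of presence, which did not pass the test (Fisher's exact p = 0.486, adjusted p = 1).

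The 4 peaks shared 44 bases, from 51553835 to 51553878, and each began and ended on a base of its own. A further Ppargc1a peak was listed in db/db mouse 3 alone, at chr5:51457732-51457768, with a fold of 4.68 at percentile 5.67. It lay 3483 bases from the 3′ end of the gene, far from the recurrent region, and counted by gene it falls in the same mouse. The presence and absence of Ppargc1a in the 8 mice was shared by 14 of 8283 other genes, none of them in the oxidation list, and that of Hadhb by 41, again none in the list.

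Ppara (gene ID 19013), whose transcript is known in mouse liver cells to carry m6A, had 1 peak, in db/db mouse 1, and none in lean mice. It lay at chr15:85736131-85736172, 356 to 397 bases from the window's start site and 1222 to 1263 bases from the outer bound, with a fold of 8.29 at percentile 27.7 of its list, and the authors assigned it to transcript ENSMUST00000057979. This was the 1 peak among the 7 genes in that mouse. Fisher's exact p was 1 for Ppara and for Acadm.

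Ranked by the number of mice, Cpt1a (3 db/db and 4 lean) came before Ppargc1a (1 and 3), Hadhb (0 and 2), Acadm (0 and 1), Ppara (1 and 0) and the 2 genes with no peak. In the median percentile of a region, the recurrent Ppargc1a region stood at 93.0, that of Cpt1a at 35.1 and that of Hadhb at 7.38. Over the 16 peaks the median fold was 8.69, with 7 above the median of their own list, 3 of them from db/db livers and 4 from lean livers.

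Counted per mouse, 1, 1, 2 and 1 of the 7 genes had a peak in db/db mice 1 to 4, and 4, 2, 2 and 2 in lean mice 1 to 4. The mean was 1.25 ± 0.50 genes per db/db mouse, against 2.50 ± 1 per lean mouse (SD, n = 4 each), or 17.9% and 35.7% of the 7 genes. Db/db mouse 3 and lean mice 2 to 4 had equal counts, so the genotypes met at 2 genes. Of the 8284 genes with a peak in any list, 35.3% ± 5.53 had a peak per db/db mouse, against 30.5% ± 7.60 per lean mouse. These shares leave out genes with no peak in any mouse, whereas the 7 genes include 2 such genes. The levels are therefore not on the same basis. No test was made of this count, because the genes were chosen with results of these data known. Without lean mouse 1 the difference, db/db minus lean, was -0.75 genes, against -1.25 with all mice. It was -0.75 with lists cut to equal length by fold and -0.5 with peaks of a p-value of at most 1e-10.

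None of the 5 genes with a peak passed Fisher's exact test with Benjamini-Hochberg adjustment, as was so for 0% of the 8284 genes tested, and none had an unadjusted p under 0.05, against 0.338% of all genes. With 4 mice against 4 the smallest p the test can give is 0.0286, which needs a peak in every mouse of a genotype and in no mouse of its counterpart. After adjustment over 8284 genes, a p of that size could pass only if a large share of all genes reached it. Hadhb and Ppargc1a were lower in db/db mice by at least 2 mice, as were 7.33% of all genes, and none of the 7 genes was higher by as much, against 12.1% of all genes. Counted by region, 2 of the 6 were lower in db/db mice by at least 2 mice, against 3.57% of 17936 regions, and none was higher, against 4.47%. None of the 6 regions passed Fisher's exact test after adjustment, where 0% of all regions did, and none had an unadjusted p under 0.05, against 0.167% of all regions.

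**Figure D3:**
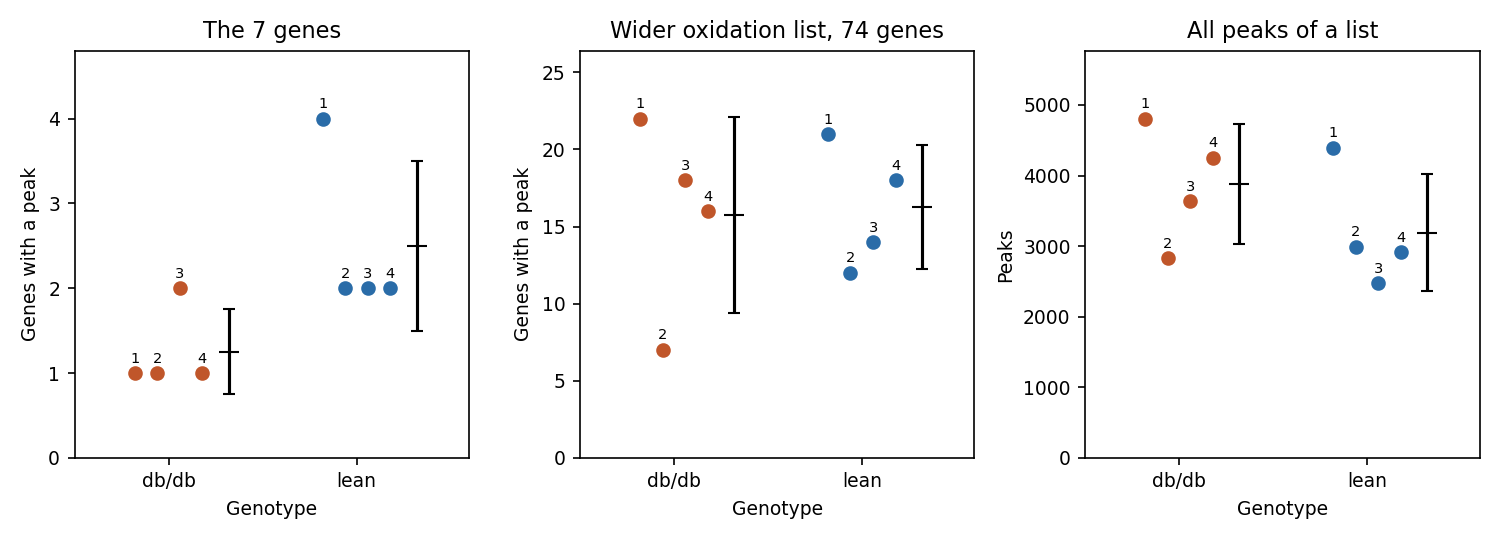
Genes with a listed peak among the 7 genes (left) and among the 74 genes of the wider oxidation list (middle), and peaks in the whole list (right), with 1 point per mouse labelled by its number, db/db left of lean; bars give the mean and SD of 4 mice. Of the 7 genes, db/db mice had 1 or 2 and lean mice 2 or 4, while in the wider list both genotypes spread over similar ranges.

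A wider list of 74 other genes, which holds none of the 7, set them in their pathway. Of the 74, 43 had a peak in some mouse. The count was 22, 7, 18 and 16 genes in db/db mice 1 to 4 and 21, 12, 14 and 18 in lean mice 1 to 4, on average 15.8 ± 6.34 genes per db/db mouse and 16.3 ± 4.03 per lean mouse (SD, n = 4 each). The genotypes overlapped throughout, and db/db mouse 2, with 2831 peaks the shortest db/db list, was the lowest. More db/db mice than lean mice had a peak in 16 of the 43 genes, more lean mice in 17, and the number was equal in 10, with a median difference of 0. Over all 8284 genes the shares were 45.3% with more db/db mice and 32.3% with more lean mice, also with a median difference of 0. The mean difference, db/db minus lean, was -0.5 genes, and it turned to 2.42 without db/db mouse 2, 1.08 without lean mouse 1 and 0.0833 without lean mouse 4. It was -5.5 with lists cut to equal length and 2 with peaks of a p-value of at most 1e-10. None of the 43 passed the test, with or without adjustment.

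Of the genes with a peak for the mitochondrial spiral, fatty acid entry and peroxisomes, 1 in each group had a peak in more db/db mice, while 4 of 6, 3 of 5 and 3 of 4 had one in more lean mice, beside 45.3% and 32.3% over all genes. These counts were not tested. Decr1, which reduces dienoyl-CoA from unsaturated chains, had 1 region, at chr4:15945283-15945410, in 2 db/db and 4 lean mice, with folds of 6.82 and 8.05 in db/db mice 3 and 4 and 11.4, 7.24, 11.5 and 9.77 in lean mice 1 to 4 (Fisher's exact p = 0.429, adjusted p = 1). Abcd2 encodes a peroxisomal transporter of very long acyl chains. For Abcd2, 0 of 4 db/db but 3 of 4 lean mice carried a peak (Fisher's exact p = 0.143, adjusted p = 1). Its 1 region lay at chr15:91190892-91191240. Acacb, the acetyl-CoA carboxylase that makes the malonyl-CoA that blocks CPT1, also had a peak in 1 db/db and 3 lean mice, spread over 5 regions of which none was found in more than 2 mice. With peaks of a p-value of at most 1e-10 its direction turned, to 1 more db/db mouse.

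Many enzymes central to the pathway had no listed peak, among them Acadvl, Acadl, Echs1, Acaa2 and Ehhadh. In all, 6 of 12 genes of the mitochondrial spiral, 9 of 14 of entry and activation, 6 of 10 of peroxisomes and 3 of 4 of ketogenesis had none. Among regulators 5 of 24 had none, and among PPARα targets 2 of 10. The share of all annotated genes without a peak was not counted, so these counts have no background beside them. The groups were not compared by a test, and the list was chosen with earlier results of these data known.

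Of the 19 regulators with a peak, 10, or 52.6%, had one in more db/db mice and 4, or 21.1%, in more lean mice, beside the 45.3% and 32.3% over all genes. Crebbp, a histone acetyltransferase and coactivator, carried a peak in 3 db/db but 0 lean mice (Fisher's exact p = 0.143, adjusted p = 1), but its 5 regions were each found in a single mouse. Esrra, a nuclear receptor that works with PGC-1α, Lpin1, a phosphatidate phosphatase that also coactivates PPARα, and Tbl1x, a subunit of corepressor complexes, each carried a peak in 2 db/db but 0 lean mice. Prkaa1, a catalytic subunit of AMP-activated kinase, had one in 0 db/db but 2 lean mice. Of these 4 genes, Lpin1 had a region shared by 2 mice, and the regions of the others were each found in 1 mouse.

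Nrip1, a corepressor of nuclear receptors, had a peak in all 8 mice, and Ncor1, another corepressor, in 3 db/db and 4 lean mice. The main Nrip1 region, at chr16:76294302-76294590, was found in all 8 mice, with a median fold of 23.3. Genes of near-identical families in the list, such as Acot1 and Acot2, Acaa1a and Acaa1b, and Cyp4a14, can share reads with their paralogs, and their counts are uncertain for that reason.

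**Figure D4:**
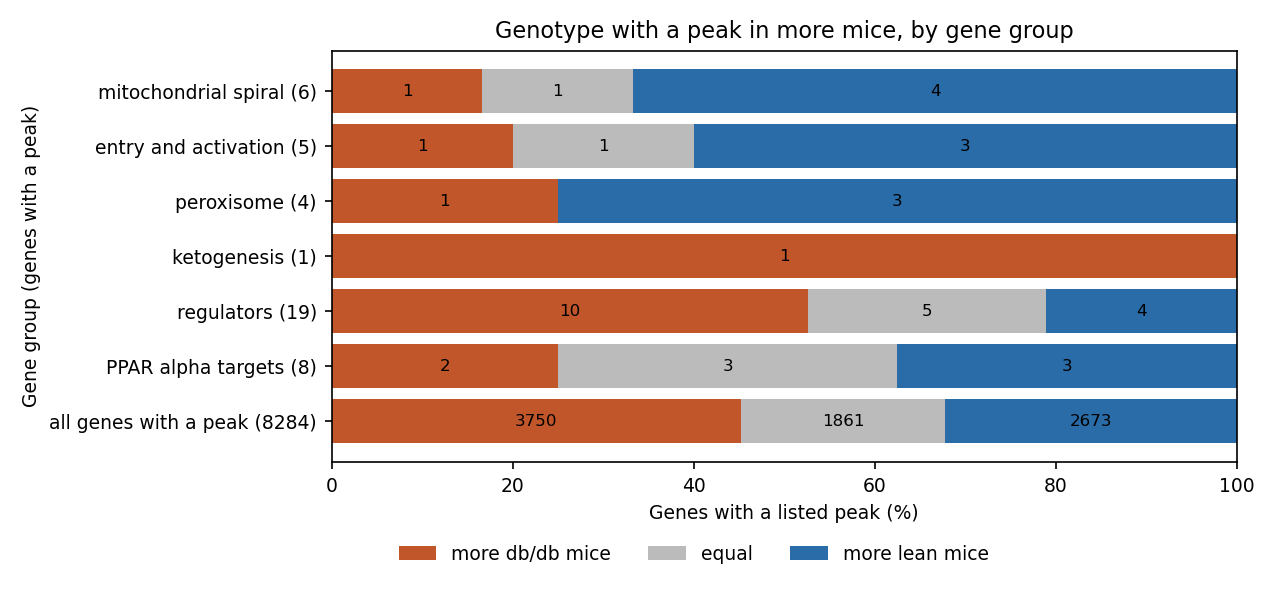
Share of the genes with a listed peak in each group of the oxidation list (rows, with the number of such genes) that had a peak in more db/db mice (orange), in equal numbers (grey) or in more lean mice (blue); numbers in the bars count genes. Among regulators 10 genes had a peak in more db/db mice and 4 in more lean mice, and in the spiral, entry and peroxisome groups 1 gene each in more db/db mice and 4, 3 and 3 in more lean mice, beside 3750 and 2673 over all genes.

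The pathway terms that the authors attached to their peaks gave a further count. Of 22 genes with a peak that carry the term fatty acid degradation, which include Acadm, Cpt1a and Hadhb, more db/db mice had a peak in 5 and more lean mice in 13, where the shares over all genes were 45.3% and 32.3%. Per mouse 9, 6, 9 and 6 of them had a peak in db/db mice 1 to 4 and 11, 8, 10 and 8 in lean mice 1 to 4, so that the ranges overlapped. Of 28 genes with the term PPAR signaling pathway, which include Acadm, Cpt1a and Ppara, the counts were 7 with more db/db mice and 14 with more lean mice. The per-mouse counts there were 13, 10, 12 and 9 for db/db mice 1 to 4, against 13, 12, 12 and 13 for lean mice 1 to 4. These terms were examined after the values of the 7 genes had been seen, they share genes with each other and with the oxidation list, and no test was made of them.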

How the data were processed

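Liver RNA of 8 mice was fragmented and immunoprecipitated with a polyclonal anti-m6A antibody, per the labels' protocols. The submitters' processing notes name cutadapt 1.9.3, HISAT2 2.0.4 and the build mm10. The peak caller's version and its use of the inputs are not given in the sources used here. Peaks carry MACS-style names and were called per mouse, per the file headers. The fold enrichment in the deposited lists is a ratio whose denominator is not described, and each peak's deposited score is its p-value as -10 times log10, of which the smallest was 50. Peak length in bases is a further deposited value.

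Starts were converted to count from 1. Peaks of a gene sharing at least 1 base formed a region. Presence per gene and per region was compared by two-sided Fisher's exact tests with Benjamini-Hochberg adjustment over the whole table (Python 3.11.15, SciPy 1.17.1, pandas 2.3.3), after the functions were tested on simulated data. Percentiles rank folds within a list. Gene bounds and promoter windows came from RefSeq GRCm38.p6, which matched all 7 genes. The 7 genes, the oxidation list and the markers were chosen with earlier results of these data known. Beside the 7 genes, those named are list genes that differ by at least 2 mice, have a peak in 7 or 8 mice or match a member's pattern, and examples named after their values were seen. Fisher's exact p-values compare numbers of mice with a peak, and permutation p-values compare list lengths. Both take the mice as labelled as the units. The 8 input libraries were not analysed here. A few genes taken by this rule are not reported here.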

Additional observations from a re-analysis of the deposited data

Results flagged for a closer look

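Among the 11 sets of 4 mice examined for a value far from the rest, 3 held one; chance gives about 1 in 20 for continuous values, and 2 of the 3 are small counts in which the other 3 mice were equal. Of the 7 genes, db/db mouse 3 had 2 with a peak, where db/db mice 1, 2 and 4 had 1. Lean mouse 1 had 4, where lean mice 2, 3 and 4 had 2. The fold of the Cpt1a peak was 27.1 in lean mouse 3, against 5.80 to 8.49 in the other lean mice.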

How the results depend on the processing

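No gene and no region passed the adjusted test under any alternative run. With 4 mice against 4 the smallest Fisher's exact p is 0.0286. That could pass adjustment only if a large share of genes or regions reached it, so the absence of calls is no sign of stability. For the 5 genes with a peak no alternative reversed the direction, but in some runs the difference fell to 0. Among these were Cpt1a, Ppara and Acadm at equal list lengths and Cpt1a at a p-value of at most 1e-10. Others were Ppara without db/db mouse 1 and Acadm without lean mouse 1. The difference in genes with a peak, db/db minus lean, was -1.25 of the 7 genes, and -1.5 to -0.75 when each mouse was left out. It was -0.75 with lists of equal length (the 2475 peaks of highest fold) and -0.5 at a p-value of at most 1e-10. Equal length removed the Ppara, Acadm and lean mouse 1 Hadhb and Cpt1a peaks. It also removed the Ppargc1a peak of fold 4.68 in db/db mouse 3, where the gene stayed counted through its recurrent region. For the 74 genes of the oxidation list it was -0.5, with -2.58 to 2.42 when mice were left out, 2 at a p of at most 1e-10 and -5.5 at equal length, so that its sign was not stable; it was above 0 with any of db/db mouse 2 and lean mice 1 and 4 left out. The difference in list length, 690 peaks, whose alternatives were chosen after seeing the data, was 382 without db/db mouse 1 and 451 without lean mouse 3, 1041 without db/db mouse 2 and 1091 without lean mouse 1 (exact permutation p of 0.114 to 0.571 over the 8 mice left out). Acacb turned to 1 more db/db mouse at a p of at most 1e-10; the cause was not tested. Decr1 at equal length (0 db/db and 4 lean mice), Crebbp without db/db mouse 4 and Abcd2 without lean mouse 3 reached an unadjusted Fisher's exact p of 0.0286. Folds of at least 5, genes taken from annotated bounds and peaks joined at 50% overlap changed none of these calls.

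With mice paired by number as a replicate block, the difference stayed at -1.25 genes and no gene or region passed. The exact McNemar test with 4 pairs cannot give a p below 0.125. Deviations of mice with the same number correlated at -0.028 to 0.00877, so no pairing by number was seen in the lists. Whether mice with the same number shared any handling was not tested. The lists hold no read counts, so what depth would show cannot be given.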
